A study of Mus musculus with 38 samples.

Results

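Cell cycle and DNA replication genes were followed in the bone marrow and in sorted osteoclast precursors of mice given zoledronic acid, granulocyte colony-stimulating factor (G-CSF), or both. The set held 47 genes, taken as a fixed list of mouse symbols matched to the Ensembl identifiers of the deposited tables. All 47 were present, among 47729 genes in the whole marrow table and 46679 genes in the precursor table, and all 47 passed the filter on low counts in every comparison. By role they comprised 9 G1 cyclins, cyclin-dependent kinases (CDKs) and E2f1, 3 CDK inhibitors, 10 replication licensing and fork genes, 4 genes of nucleotide supply, 4 S to M cyclins and Cdk1, 8 genes of mitotic kinases, the spindle checkpoint and the anaphase-promoting complex, and 9 chromosome and spindle genes.

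RNA was sequenced from female C57BL/6 mice aged 6 to 7 weeks, purchased as C57BL/6J. Zoledronic acid (ZA), a bisphosphonate that inhibits bone resorption, was given intraperitoneally at 100 µg/kg. Recombinant human G-CSF, the growth factor that drives neutrophil production, was given intraperitoneally at 50 µg/kg on each of 3 days, and in combined treatment its dosing began 2 days after ZA. Whole marrow was represented by 2 untreated, 3 G-CSF, 2 ZA and 2 combined libraries. The first sequencing run of the precursor table held 8 libraries of lineage-negative, CD115-positive cells (1 untreated, 3 G-CSF, 1 ZA and 3 combined) and 3 whole marrow libraries (1 untreated, 1 G-CSF and 1 ZA). No vehicle injection is named for the untreated mice. The libraries carry biological replicate numbers, but nothing says that each came from a single separate animal, and p-values here speak only to the variation among libraries, which may be technical.

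The cell cycle runs through G1, S, G2 and M phases. In G1 the D cyclins with CDK4 or CDK6, and then the E cyclins with CDK2, release E2F transcription factors from the retinoblastoma protein, and CDK inhibitors oppose these kinases. E2F factors activate genes that license origins and copy DNA, while cyclins A and B with CDK1, the Aurora and Polo kinases and the spindle checkpoint carry the cell through mitosis. In marrow, dividing cells are mostly early erythroid, granulocytic, monocytic and lymphoid cells, and the most mature blood cells have left the cycle. In bulk RNA, fewer dividing cells and less RNA per cell cannot be told apart.

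Promoter sequences were compared because replication and mitosis genes are known to be switched on through different short words. The words searched, on both strands, were the CCAAT box (CCAAT), the core of the cell cycle homology region or CHR (TTTGAA, or else the form TTTAAA), and E2F-like words. The E2F-like words were TTCCCGC with 3 close forms of it, spelled TTCGCGC and also spelled TTGCCGC and, as the last of these forms, TTGGCGC. Windows of 300 bases, from 250 before to 50 after the start site, came from RefSeq on GRCm38.p6, and 40 of 47 genes had an entry. Ccnd1, Ccnd2, Ccne2, Mcm4, Ccna2, Aurkb and Tpx2 had none. Among mitosis genes, 16 of 18 (88.9%) held a CCAAT box, 16 of 18 (88.9%) a CHR core and 3 of 18 (16.7%) an E2F-like word. Replication and nucleotide supply genes held a CCAAT box in 9 of 13 (69.2%), a CHR core in 5 of 13 (38.5%) and an E2F-like word in 8 of 13 (61.5%). The G1 and inhibitor genes held them in 4, 2 and 2 of 9, respectively. Over all 32851 promoters in the table the shares were 37.4%, 27.6% and 9.57%. A gene with more than 1 listed promoter was counted once, if any of its windows held the word. A match is a description of letters and not a binding site.

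The upstream stretches below are those of 5 of the genes called after G-CSF and of 3 genes with many such words. Each lies outside annotated exons and is written 5′ to 3′ on the gene's strand. The stretch of Ccnb1, also called, is not printed. It held 1 CCAAT box and 1 E2F-like word but no CHR core, which in its full window lay nearer the start site. Capitals mark the words on either strand, so that ATTGG is a CCAAT box and TTCAAA a CHR core read on the other strand. The first 3 are replication genes, of which Mcm3 and Cdt1 were higher after G-CSF and Mcm6 held 4 E2F-like words in this stretch, in overlapping pairs. They lie at chr1:20820313-20820442, chr8:122567885-122568014 and chr1:128359706-128359835 on GRCm38.p6, on the minus, plus and minus strand.
Mcm3: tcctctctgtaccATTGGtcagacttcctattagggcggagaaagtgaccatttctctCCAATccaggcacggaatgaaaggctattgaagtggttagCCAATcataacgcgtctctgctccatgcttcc
Cdt1: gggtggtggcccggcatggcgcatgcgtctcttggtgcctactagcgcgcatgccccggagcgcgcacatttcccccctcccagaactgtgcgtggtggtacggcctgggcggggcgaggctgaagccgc
Mcm6: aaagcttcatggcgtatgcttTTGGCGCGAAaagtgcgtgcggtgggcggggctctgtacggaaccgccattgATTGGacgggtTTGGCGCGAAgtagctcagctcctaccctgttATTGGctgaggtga

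Cdt1 had no marked word in this stretch; in its full window, as in that of Mcm3, the E2F-like words lay after the start site. The next 4 are mitosis genes, of which Bub1b and Kif11 were lower after G-CSF and Top2a and Ccnb2 held 3 CCAAT boxes each in this stretch. The last, Cdkn1b, encodes the CDK inhibitor p27 and was lower after G-CSF. In the order shown they lie at chr2:118598081-118598210 (plus strand), chr19:37376252-37376381 (plus), chr11:99024190-99024319 (minus), chr9:70421555-70421684 (minus) and chr6:134920271-134920400 (plus).
Bub1b: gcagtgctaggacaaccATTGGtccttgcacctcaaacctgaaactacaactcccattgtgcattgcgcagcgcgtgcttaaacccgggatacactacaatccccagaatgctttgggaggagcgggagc
Kif11: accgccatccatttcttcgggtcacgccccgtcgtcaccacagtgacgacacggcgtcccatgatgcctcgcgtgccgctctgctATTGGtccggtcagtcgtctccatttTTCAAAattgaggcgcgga
Top2a: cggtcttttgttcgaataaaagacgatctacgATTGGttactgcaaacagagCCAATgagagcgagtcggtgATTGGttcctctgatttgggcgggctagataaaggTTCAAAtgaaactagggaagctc
Ccnb2: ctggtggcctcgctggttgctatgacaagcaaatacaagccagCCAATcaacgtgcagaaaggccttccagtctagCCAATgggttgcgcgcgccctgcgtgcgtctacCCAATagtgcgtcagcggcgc
Cdkn1b: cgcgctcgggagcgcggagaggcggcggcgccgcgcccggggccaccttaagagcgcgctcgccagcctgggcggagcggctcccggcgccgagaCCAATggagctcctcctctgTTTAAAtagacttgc

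Whole marrow libraries held 6236320 to 16152286 estimated reads and the run 1 precursor libraries 21049178 to 33190370. The sort matched its markers: Csf1r, which encodes CD115, stood at 43.3 to 77.9 TPM, a level adjusted for gene length, in the 8 precursor libraries and at 9.1 to 13.4 TPM in the 3 marrow libraries, and globins took at most 1.0% of TPM in precursors against 28.7% to 40.3% in marrow. The 3 marrow libraries of run 1 matched replicate 2 of untreated, G-CSF and ZA marrow in the marrow table (r of log2 TPM 0.99932 to 0.99955, with nearly equal totals) and are taken as the same libraries, so the tables are not independent. Run 2 was left out of the main comparisons because its libraries went against their labels: globins passed 5% of TPM in 7 of 15 precursor libraries and in 1 of 3 marrow libraries. Untreated marrow replicate 1 stood apart: small RNA genes took 39.1% of its TPM, while the remaining 8 marrow libraries had 6.46% to 12.25% and the 8 precursor libraries 16.87% to 42.45%. In marrow, 50 genes were on in all 5 libraries with G-CSF and off in all 4 without, and 11 the reverse; G-CSF and any difference in genetic background between those libraries cannot be told apart.

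By TPM, Ccnd3 stood highest of the 47 genes in marrow. This D cyclin was at 270 and 647 TPM in untreated marrow, 759, 651 and 993 TPM after G-CSF, 638 and 584 TPM after ZA, and 1286 and 1270 TPM after combined treatment. The combined libraries stood above all others. Ccnd2 had a median of 22.9 TPM over the 9 libraries and Ccnd1 of 1.26 TPM. Of the kinases that D cyclins partner, Cdk4 had a median of 201 TPM and Cdk6 of 5.11 TPM.

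The highest member of each later role also ranked high in marrow. Pcna, the sliding clamp of the replication fork, was at 106 and 171 TPM in untreated marrow, 276, 307 and 281 TPM after G-CSF, 185 and 167 TPM after ZA, and 336 and 319 TPM after combined treatment. Cdk1, the mitotic kinase, was at 85.5 and 171 TPM untreated, 211, 239 and 235 TPM after G-CSF, 170 and 150 TPM after ZA, and 267 and 245 TPM combined. Ube2c, the ubiquitin-conjugating enzyme of the anaphase-promoting complex, was at 85.2 and 149 TPM untreated, 198, 214 and 202 TPM after G-CSF, 183 and 144 TPM after ZA, and 268 and 221 TPM combined. Pcna, Cdk1 and Ube2c were higher by TPM in each of the 5 libraries with G-CSF than in each of the 4 without it. The share of all genes with such a gap was not counted. By the scaled counts described below, the untreated and G-CSF ranges of Pcna, Cdk1 and Ube2c overlapped.

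Rrm2, the small subunit of ribonucleotide reductase, overlapped between untreated (55.1 and 124 TPM) and G-CSF marrow (109, 133 and 113 TPM), with 118 and 105 TPM after ZA and 149 and 172 TPM combined. Cenpa, the centromeric histone, was at 90.3 and 138 TPM untreated, 135, 138 and 132 TPM after G-CSF, 127 and 129 TPM after ZA, and 166 and 180 TPM combined. Cdkn1b, the highest of the CDK inhibitors, was at 17.2 and 38.1 TPM untreated, 24.2, 30.2 and 25.3 TPM after G-CSF, 27.6 and 23.9 TPM after ZA, and 33.9 and 38.7 TPM combined. In all of these genes untreated replicate 1, the library rich in small RNA, was the lowest of the 9.

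For comparisons, counts were scaled by trimmed mean of M values (TMM) and are given as CPM, counts set against the scaled library total, which unlike TPM are not adjusted for gene length. These scaled values set each library against the bulk of its genes and show which members moved relative to the rest, as plotted by library.

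**Figure D1:**
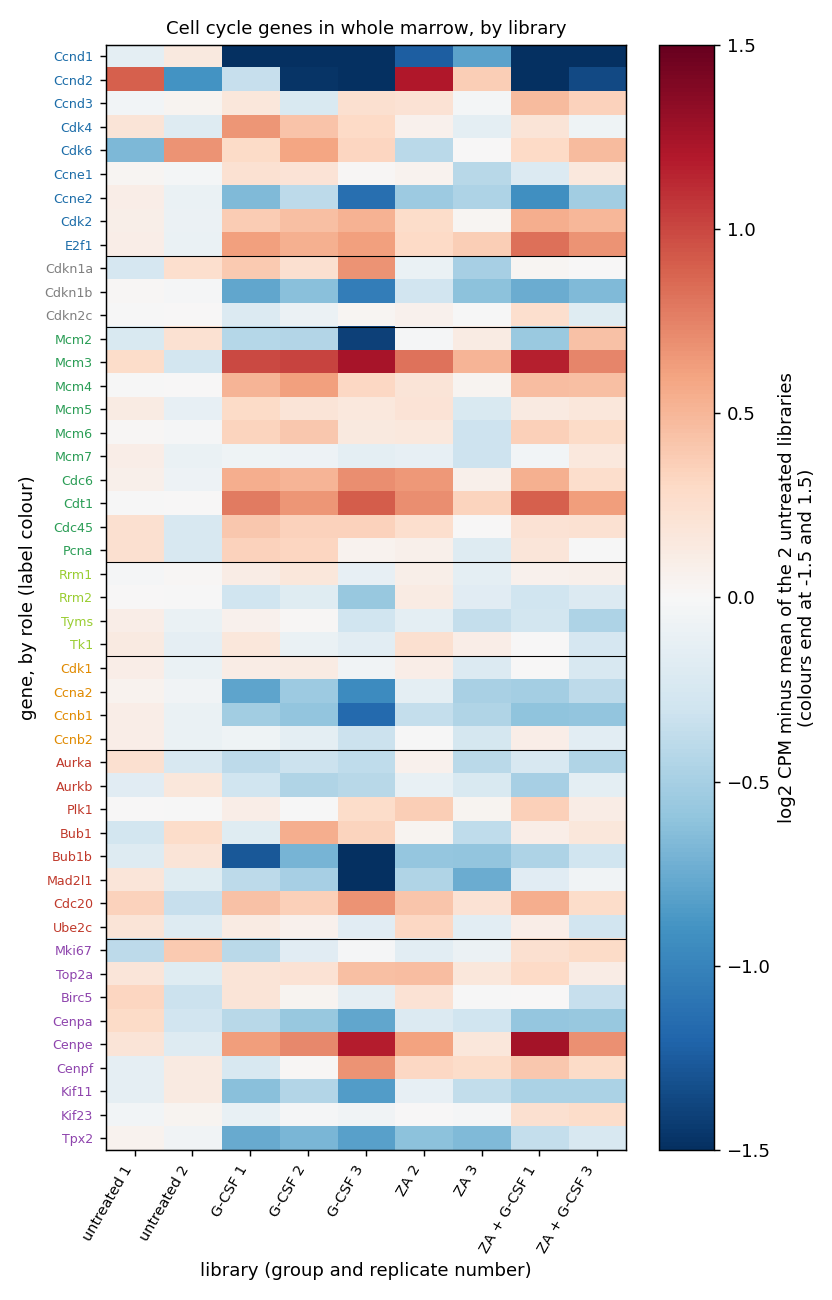
Each row is a gene, grouped by role, and each column a whole marrow library; colour gives log2 CPM minus the mean of the 2 untreated libraries, in log2 units. Mcm3, Cdt1 and E2f1 are red in all 5 libraries with G-CSF, and Ccnd1, Cdkn1b, Bub1b and Tpx2 are blue in them.

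In whole marrow after G-CSF, by scaled counts, the licensing genes Mcm3 and Cdt1 and the transcription factor E2f1 were higher. Cyclin D1, p27 and 5 genes of S phase to mitosis were lower by the same counts. Against untreated marrow 10 of 47 members passed the test, 3 higher and 7 lower (21.3% of members; 6.38% higher and 14.9% lower). Over all 14737 genes tested 11.8% were called, 4.93% higher and 6.91% lower. The test was edgeR's quasi-likelihood test with Benjamini-Hochberg adjustment over all genes, and a gene was called at an adjusted p under 0.05. The median log2 change over the 47 members was 0.01, and over all genes 0.01.

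Mcm3 (ENSMUSG00000041859, chr1:20802968-20820312 on GRCm38) encodes a subunit of the MCM helicase that is loaded on origins before S phase. It was at 182 and 125 CPM in untreated marrow, 299, 305 and 353 CPM after G-CSF, 265 and 215 CPM after ZA, and 339 and 249 CPM after combined treatment. The G-CSF libraries lay above both untreated libraries, with a log2 change of 1.06 ± 0.21 (SE; edgeR adjusted p = 0.0137; higher in 3 of 3).

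Cdt1 (ENSMUSG00000006585, chr8:122568015-122573554) encodes the factor that loads the MCM helicase. It was at 78.1 and 78.7 CPM untreated, 135, 124 and 147 CPM after G-CSF, 127 and 98.4 CPM after ZA, and 146 and 121 CPM combined. No treated library reached down to the untreated level, and the G-CSF change was 0.79 ± 0.17 on the log2 scale (SE; edgeR adjusted p = 0.0171; 3 of 3).

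E2f1 (ENSMUSG00000027490, chr2:154559407-154569892), the transcription factor of replication genes, was at 45.7 and 39.9 CPM untreated, 65.7, 61.7 and 65.6 CPM after G-CSF, 52.5 and 55.1 CPM after ZA, and 75.9 and 68.0 CPM combined. The groups did not overlap, and the G-CSF change was 0.59 ± 0.15 (log2, SE; edgeR adjusted p = 0.0326; 3 of 3).

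Of the 10 licensing and fork genes, 8 had positive estimates and 2 were called, with a median log2 change of 0.32. Mcm2 had the lowest estimate of that group, -0.71, with 132 to 259 CPM after G-CSF and 299 and 408 CPM untreated, and was not called. The 4 nucleotide supply genes (Rrm1, Rrm2, Tyms and Tk1) had a median of -0.05, with none called. Among the other replication genes, a list of 50, 2 were called higher and none lower: Lig1, the ligase that joins lagging-strand fragments, changed by 0.67 ± 0.17 (SE; edgeR adjusted p = 0.0316) and Fen1, the flap endonuclease, by 0.56 ± 0.14 (SE; edgeR adjusted p = 0.0340).

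Ccnd1 (ENSMUSG00000070348, chr7:144929931-144939925) encodes cyclin D1, which partners CDK4 and CDK6. It was at 20.8 and 25.5 CPM untreated, 4.34, 4.52 and 3.69 CPM after G-CSF, 9.80 and 13.3 CPM after ZA, and 4.64 and 7.87 CPM combined. Untreated libraries were the highest, the ZA libraries lay between, and the 5 libraries with G-CSF were the lowest. The log2 change after G-CSF was -2.47 ± 0.28, a 5.53-fold lower level by scaled counts (SE; edgeR adjusted p = 0.000801; 3 of 3). Ccnd1 overlaps the gene LTO1 on the other strand, and since the counting is not stated to use strand, reads of both cannot be told apart.

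The other D cyclins passed no test: Ccnd2 spread from 62.0 to 213 CPM untreated and from 40.4 to 90.8 CPM after G-CSF (log2 change -1.26 ± 0.56 SE), and Ccnd3 was at 680 and 717 CPM untreated and at 598 to 823 CPM after G-CSF. Cdkn1b (ENSMUSG00000003031, chr6:134920401-134925513) was at 194 and 189 CPM untreated, 112, 124 and 93.6 CPM after G-CSF, 157 and 125 CPM after ZA, and 114 and 121 CPM combined. It fell by 0.80 ± 0.16 on the log2 scale (SE; edgeR adjusted p = 0.0137; 3 of 3). Cdkn1a (p21) and Cdkn2c (p18), the other inhibitors, had estimates of 0.41 and -0.08 and were not called. Of 27 tested genes on the list of other inhibitors and p53 targets, 1 was called higher (Phlda3, a p53 target, at 1.42 ± 0.34 SE, edgeR adjusted p = 0.0298) and 4 lower, led by Fzr1, an activator of the anaphase-promoting complex in G1, at -1.03 ± 0.17 (SE; edgeR adjusted p = 0.00615).

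Bub1b (ENSMUSG00000040084, chr2:118598211-118641591) encodes the checkpoint kinase-like protein BUBR1, which delays anaphase. It was at 153 and 201 CPM untreated, 72.9, 108 and 62.1 CPM after G-CSF, 117 and 117 CPM after ZA, and 128 and 143 CPM combined. The groups did not overlap, and the change after G-CSF was -1.13 ± 0.23 (log2, SE; edgeR adjusted p = 0.0138; 3 of 3).

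Tpx2, which activates Aurora A on the spindle, was at 284 and 262 CPM untreated, 162, 170 and 156 CPM after G-CSF, 178 and 173 CPM after ZA, and 213 and 231 CPM combined. Its G-CSF libraries were narrow and wholly below untreated, a log2 change of -0.75 ± 0.12 (SE; edgeR adjusted p = 0.00596; 3 of 3). Ccna2 (cyclin A2), Ccnb1 (cyclin B1) and Kif11, the motor that separates spindle poles, were also lower, by -0.75, -0.73 and -0.63 log2 units, at edgeR adjusted p = 0.0193, 0.0385 and 0.0360.

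The mitotic genes did not move as 1 block. Ccnb2, Aurka, Aurkb, Plk1, Bub1, Mad2l1, Cdc20, Ube2c, Mki67, Top2a, Birc5, Cenpa, Cenpe, Cenpf, Kif23 and Cdk1 passed no test, and their estimates ran from -0.80 (Mad2l1) to 0.85 (Cenpe, a kinetochore motor, 66.7 and 86.9 CPM untreated against 118 to 172 CPM after G-CSF). Mki67, the gene of the Ki-67 proliferation antigen, was at 713 and 1233 CPM untreated and 711, 836 and 925 CPM after G-CSF, with overlapping or touching ranges. Among 63 other mitosis genes, 1 was called higher and 11 lower, led by Cdca3, a cell division cycle associated gene, at -1.03 ± 0.17 (SE; edgeR adjusted p = 0.00553) and Ect2, the exchange factor of cytokinesis, at -0.74 ± 0.17 (SE; edgeR adjusted p = 0.0215).

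**Figure D2:**
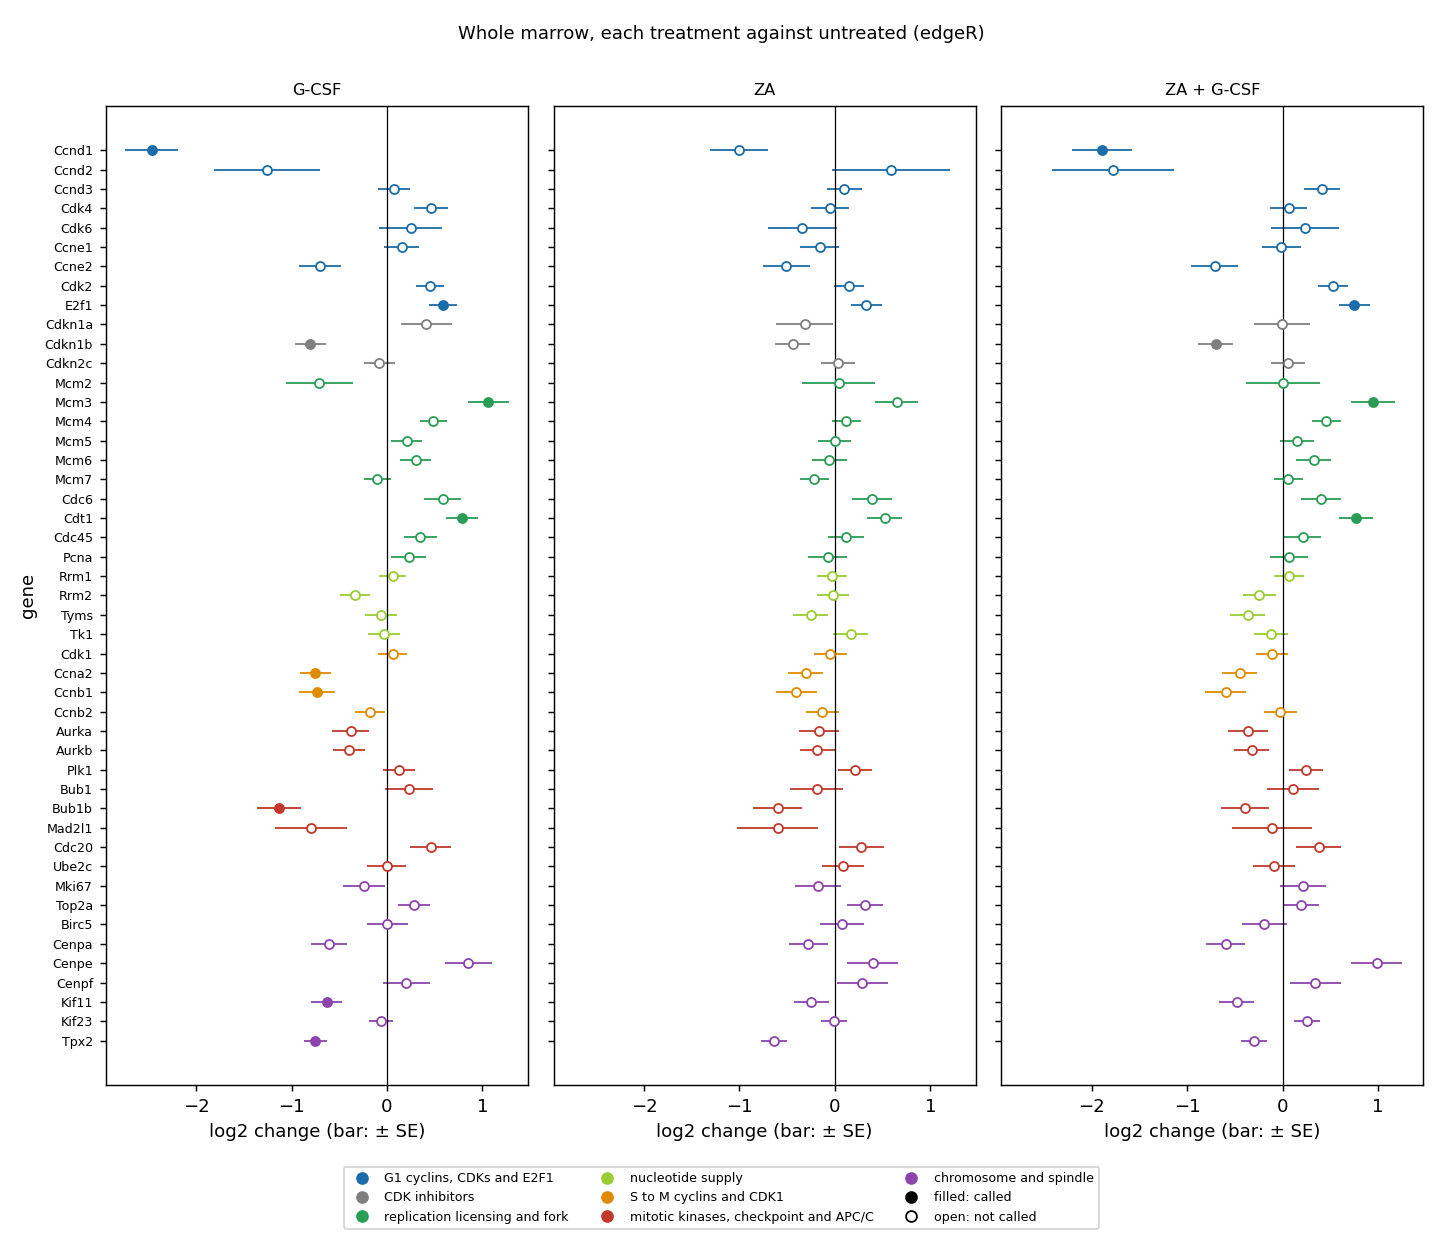
Log2 changes against untreated marrow for the 47 genes in 3 treatments, with bars of ± 1 SE from edgeR; filled points passed the adjusted threshold and colours give the role. The G-CSF panel has 3 filled points to the right of 0 and 7 to the left, the ZA panel none, and the combined panel 3 and 2.

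The G-CSF calls rested on few libraries. Without untreated replicate 2 only 4 members were called and without G-CSF replicate 1 only 6, and DESeq2's Wald test called 16 (7 higher, 9 lower). Of the main calls, only those of Ccnd1 and Tpx2 held without untreated replicate 2. The 3 higher genes all lost their call without untreated replicate 2, at edgeR adjusted p = 0.0963 for Mcm3, 0.0859 for Cdt1 and 0.166 for E2f1. Cdt1 was also lost without untreated replicate 1 (0.0626). E2f1 lost its call in 6 of the 9 fits that each left out 1 library, those without each of the 3 G-CSF libraries included (0.0867, 0.0691 and 0.0587), and with the 2 groups alone (0.0694). Among the lower genes Ccnb1 was lost in 7 of these 9 fits, Kif11 in 5, Ccna2 in 3, and Bub1b and Cdkn1b in 2 each, while Ccnd1 and Tpx2 were lost in none. On log2(TPM + 1) with limma the split turned to 15 higher and 0 lower: the median of all genes rose by 0.50 on that scale, and relative to it the 47 members had a median of 0.34 and the licensing and fork group of 0.61. Mcm3 (1.38 above the all-gene median), Cdt1 (1.03) and E2f1 were called higher on both scales. Ccnd1 was at -0.94 on the TPM scale, just above the threshold (limma adjusted p = 0.05003), and Bub1b at -0.29 (limma adjusted p = 0.601), so neither was called there. Cdkn1b and Tpx2 changed sign on the TPM scale, to 0.04 and 0.10, as did Kif11, Ccna2 and Ccnb1, and relative to the all-gene median there they were at -0.48, -0.42, -0.32, -0.42 and -0.42. By TPM, Cdkn1b, Tpx2, Kif11, Ccna2 and Ccnb1 each stood above every G-CSF library in untreated replicate 2. In untreated replicate 1 each stood below every G-CSF library. Tpx2, for example, was at 40.8 TPM in replicate 2 and 19.4 TPM in replicate 1, against 27.0 to 32.4 TPM after G-CSF. Untreated replicate 1, the library rich in small RNA, is 1 of the 2 untreated libraries, and its part in the TPM shift was not tested.

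Markers of several other cell types moved with G-CSF in the same libraries, while further lists moved little or were divided. Of 14 erythroid markers 5 were called lower and 1 higher, and their summed level was 195700 to 277100 CPM untreated and 81680 to 118400 CPM after G-CSF. Primary granule genes, which mark dividing promyelocytes, were called higher in 5 of 8, summing to 1827 to 2415 CPM untreated and 3480 to 4366 CPM after G-CSF. Monocyte and macrophage markers were called lower in 5 of 10 (1722 to 2193 CPM against 843 to 974 CPM), and megakaryocyte markers were all 8 positive with 1 called (150 to 381 CPM against 1110 to 1490 CPM). Mature neutrophil markers had 1 of 11 called higher, with overlapping sums (33900 to 36360 CPM untreated against 27230 to 37360 CPM). Early B markers had 1 of 12 called lower, and stem and progenitor markers 0 of 10 called. T and NK markers were divided, with 4 of 10 called higher and 4 lower. No marker of these lists was at 0 in every library. Their part in the member changes was not tested.

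ZA alone was followed by no call among the 47 members, and 0.0339% of all genes were called. At an unadjusted p under 0.05 there were 6 members, and DESeq2 called 1. The smallest p belonged to Tpx2 (178 and 173 CPM against 262 and 284 CPM; log2 change -0.64 ± 0.14 SE, edgeR adjusted p = 0.243) and Ccnd1 (-1.01 ± 0.31 SE, edgeR adjusted p = 0.407). The estimates lay within 0.5 log2 units of 0 for 39 of 47 members, with a median SE of 0.19. None of the 50 other replication, 63 other mitosis and 27 other inhibitor genes was called.

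Combined treatment against untreated marrow gave 5 calls, 3 higher and 2 lower (10.6% of members), while 7.72% of all genes were called, 3.17% higher and 4.55% lower. Mcm3 rose by 0.94 ± 0.23 (SE; edgeR adjusted p = 0.0376), Cdt1 by 0.77 ± 0.18 (adjusted p = 0.0338) and E2f1 by 0.75 ± 0.16 (adjusted p = 0.0245), each in 2 of 2 libraries. Ccnd1 fell by 1.89 ± 0.32 (SE; edgeR adjusted p = 0.00840) and Cdkn1b by 0.70 ± 0.18 (adjusted p = 0.0472), also in 2 of 2. These 5 were all among the genes called after G-CSF, but both comparisons share the untreated libraries.

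All 10 licensing and fork genes had positive estimates after combined treatment, with a median of 0.27, but only Mcm3 and Cdt1 of them were called. In Mcm2 (238 and 472 CPM against 299 and 408 CPM untreated), Mcm7 and Pcna the groups overlapped. The 4 S to M genes had negative estimates, with a median of -0.28 and none called. The median over all genes was -0.01, and the share of all genes with a positive estimate was not counted. Of the other lists, 3 of 63 mitosis genes were called lower, led by Cdca3 (-0.89 ± 0.19 SE, edgeR adjusted p = 0.0241) and Cenpi, a centromere protein gene (-0.94 ± 0.20 SE, edgeR adjusted p = 0.0264), and no other replication or inhibitor gene was called. The count fell to 0 without combined replicate 1, 1 without combined replicate 3, 3 without either untreated library and 2 without G-CSF replicate 1 or 2, and a fit of the 2 groups alone called 1. Of the main calls, only that of Ccnd1 held without untreated replicate 2. On log2(TPM + 1) there were 28 higher and 0 lower, with all genes shifted by 0.80, Cdkn1b turned to 0.48 and Ccnd1 at -0.48 and not called (limma adjusted p = 0.232). None of the 5 calls held in every fit that left out 1 library. Erythroid markers summed to 59030 to 62450 CPM after combined treatment, with 7 of 14 called lower and 1 higher. Monocyte and macrophage markers summed to 813 to 910 CPM, with 5 of 10 lower. Mature neutrophil markers had 3 of 11 called lower, and T and NK markers 4 of 10 lower and 1 higher. Stem and progenitor markers had 1 of 10 called higher, and primary granule, early B and megakaryocyte markers had 0 calls. The part of these markers was not tested.

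Adding ZA to G-CSF was compared within the libraries that received G-CSF. No member was called in combined against G-CSF marrow, where 0.00679% of all genes were, and 3 members had an unadjusted p under 0.05. DESeq2 called 1 member and the fit without a count filter 2. Tpx2 had the smallest p, at 213 and 231 CPM combined against 156 to 170 CPM after G-CSF (log2 change 0.45 ± 0.12 SE, edgeR adjusted p = 0.307). Bub1b followed, at 128 and 143 CPM against 62.1 to 108 CPM (0.73 ± 0.23 SE, edgeR adjusted p = 0.339). In both genes the groups did not overlap. The same held for other members, among them Kif23, Mki67, Mad2l1 and Ccnd3, and the share over all genes was not counted.

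Against ZA alone, combined treatment gave no call among members, with 4.33% of all genes called, 5 members at an unadjusted p under 0.05 and 1 called by DESeq2. Ccnd2 had the smallest p: 35.0 and 44.97 CPM combined against 265 and 148 CPM after ZA (log2 change -2.37 ± 0.65 SE, edgeR adjusted p = 0.0992). Ccnd1 was next, at -0.89 ± 0.31 (SE, edgeR adjusted p = 0.174). Among other mitosis genes 2 of 63 were called, Cdca3 (-0.91 ± 0.19 SE, edgeR adjusted p = 0.0280) and Kifc1, a minus-end spindle motor (-0.70 ± 0.16 SE, edgeR adjusted p = 0.0405).

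The interaction set the log2 change of the combination against the changes of ZA and G-CSF added together. No member was called, with 0.00679% of all genes called, 5 members at an unadjusted p under 0.05, 2 called by DESeq2 and 4 by the fit without a count filter. Tpx2 had the smallest p, with a departure of 1.09 ± 0.19 (SE, edgeR adjusted p = 0.110), and Bub1b the next, 1.34 ± 0.34 (SE, edgeR adjusted p = 0.239). Both positive departures mean that the combined level lay above that sum.

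Within a library, the balance of replication and mitosis genes needs no scaling between libraries. The mean log2 CPM of the 14 replication and nucleotide supply genes exceeded that of the 21 mitosis genes by 0.138 and 0.081 in untreated marrow and by 0.60, 0.501 and 0.474 after G-CSF. It was 0.331 and 0.285 after ZA and 0.325 and 0.386 after combined treatment. Untreated libraries were thus the lowest and G-CSF libraries the highest, and ZA and combined libraries overlapped between them. In run 1 precursors it was 0.255 untreated, 0.206, 0.326 and 0.265 after G-CSF, 0.279, 0.330 and 0.284 combined, and 0.380 in the single ZA library, which was the highest; the G-CSF range held the untreated value and overlapped the combined range. This measure was chosen with the members' values known and is given without a test.

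**Figure D3:**
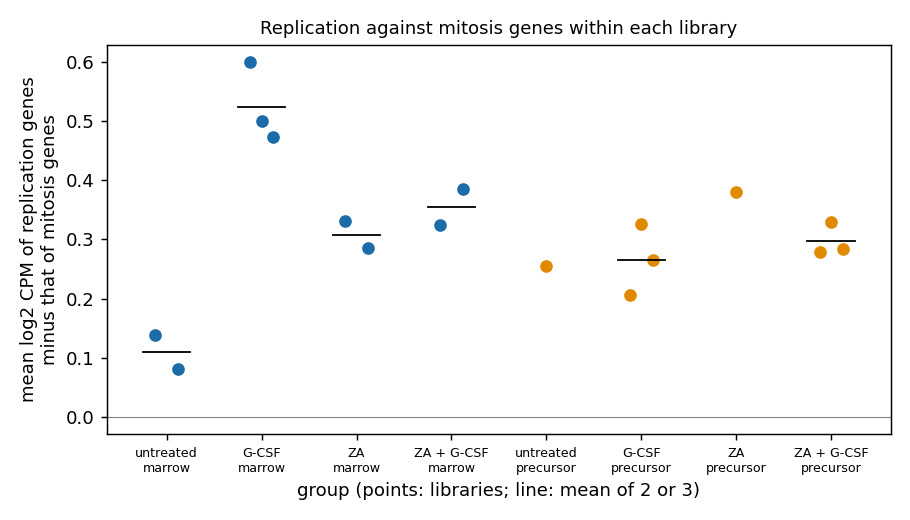
Each point is a library and gives the mean log2 CPM of 14 replication genes minus that of 21 mitosis genes; blue points are whole marrow, orange points run 1 precursors, and lines are means of groups with 2 or 3 libraries. Untreated marrow lies at 0.081 and 0.138 and G-CSF marrow between 0.474 and 0.60, while precursors stay between 0.206 and 0.380.

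In sorted precursors, edgeR called no member in either treatment comparison. The untreated and ZA groups had 1 library each, so neither agent alone was tested against untreated precursors. In run 1, combined treatment against G-CSF, with 3 libraries each, gave no call by edgeR among 47 members and 0.0% of 18779 genes, while 5 members had an unadjusted p under 0.05 and DESeq2 called 1. The estimates lay within 0.3 log2 units of 0 in 45 of 47 members, with a median SE of 0.08. The exceptions were the 2 members with the smallest p. Cdk6 was at 310, 291 and 329 CPM combined and 222, 217 and 242 CPM after G-CSF (0.44 ± 0.07 SE, edgeR adjusted p = 0.517), and Cdkn1a at 16.4, 16.8 and 13.6 CPM against 21.6, 21.8 and 26.7 CPM (-0.59 ± 0.14 SE, edgeR adjusted p = 0.687). In both genes the 3 libraries of 1 group lay wholly apart from those of the other. Other members, among them E2f1, Cdc45, Ccnb2 and Cenpa, were also wholly apart, and the share over all genes was not counted.

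With against without G-CSF, 6 precursor libraries against 2, again gave no call by edgeR among members, 0.0% of 17187 genes, 1 member at an unadjusted p under 0.05 and none by DESeq2. Ccne1 had the smallest p: it was at 37.9, 41.6 and 44.6 CPM after G-CSF and 40.1, 42.4 and 40.2 CPM combined, against 32.4 and 36.0 CPM without G-CSF (0.27 ± 0.09 SE, edgeR adjusted p = 0.9999). Cdkn1b was next (0.20 ± 0.10 SE, edgeR adjusted p = 0.9999), and its groups overlapped. Ccnd1, the member with the largest estimate in marrow after G-CSF, was at 23.1 to 44.0 CPM in these 6 libraries and 32.9 and 37.7 CPM in the 2 without G-CSF. The estimates lay within 0.3 log2 units of 0 in 46 of 47 members. Ccnd2 was at 110 to 200 CPM in the 6 libraries with G-CSF, and at 267 CPM untreated and 174 CPM after ZA. Whether the G-CSF change differed between marrow and precursors was not tested.

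Relative to whole marrow, precursors were higher in Cdk6, Bub1b, Kif23 and Aurkb and lower in Ccne1 and Ube2c on both scales used, and lower in Rrm2 and Cdk1 by scaled counts. The comparison set 5 precursor libraries against 3 marrow libraries of run 1 from untreated, G-CSF and ZA mice, with treatment as a term. Of 47 members 27 were called by edgeR, 7 higher and 20 lower (57.4%; 14.9% higher and 42.6% lower), among 17208 genes of which 43.8% were called, 20.4% higher and 23.3% lower. The median log2 change was -0.31 for members and 0.06 for all genes. The 3 marrow libraries came from 1 mouse group each. The treatment term takes up differences that marrow and precursors share, while treatment differences that are unlike between them stay in the spread.

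Higher in precursors were Cdk6, Bub1b, Kif23 and Aurkb by the smallest p. Cdk6, the alternative D-cyclin kinase, was at 236, 222, 217, 242 and 261 CPM in precursors and 121, 114 and 55.3 CPM in marrow (1.33 ± 0.24 SE, edgeR adjusted p = 0.00333). Bub1b was at 271, 238, 222, 224 and 241 CPM against 218, 116 and 121 CPM (0.80 ± 0.15 SE, edgeR adjusted p = 0.00394). Precursors exceeded marrow in every library for both genes.

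Kif23, a motor of cytokinesis, was at 165, 158, 154, 154 and 147 CPM against 120, 115 and 113 CPM (0.44 ± 0.09 SE, edgeR adjusted p = 0.00696). Aurkb, the kinase that corrects kinetochore attachments, was at 210, 212, 203, 204 and 168 CPM against 157, 102 and 124 CPM (0.69 ± 0.15 SE, edgeR adjusted p = 0.00744). Cdkn1a, Mad2l1 and Ccnd1 were also called higher, at 0.78, 0.46 and 1.52 log2 units, the last with overlapping groups since untreated marrow stood at 32.1 CPM.

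Lower in precursors were Ccne1, Ube2c, Rrm2 and Cdk1 by the smallest p. Ccne1, cyclin E1, was at 32.4, 37.9, 41.6, 44.6 and 36.0 CPM in precursors and 96.9, 114 and 98.7 CPM in marrow (-1.48 ± 0.10 SE, edgeR adjusted p = 4.48e-05). Ube2c was at 139, 131, 140, 150 and 131 CPM against 360, 425 and 485 CPM (-1.60 ± 0.12 SE, edgeR adjusted p = 5.35e-05). These were gaps of 2.79-fold and 3.03-fold, with no overlap.

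Rrm2 was at 285, 302, 301, 293 and 306 CPM against 610, 538 and 638 CPM (-0.97 ± 0.10 SE, edgeR adjusted p = 0.000226). Cdk1 was at 119, 136, 132, 132 and 127 CPM against 215, 248 and 235 CPM (-0.87 ± 0.09 SE, edgeR adjusted p = 0.000245). By scaled counts all 4 nucleotide supply genes were called lower, but Tk1 lost its call in 8 of the 8 fits that each left out 1 library and Tyms in 6, and on log2(TPM + 1) Rrm1, Tyms and Tk1 were at 0.18, 0.49 and 0.56, the last called higher, with Rrm2 at -0.10. Also called lower by scaled counts were 3 of 4 S to M genes (of which Ccna2 was lost in 5 of the 8 fits and stood at 0.42 by TPM), 4 of 9 chromosome and spindle genes, 4 of 8 mitotic kinase and checkpoint genes, and Cdc6 and Pcna of the 10 licensing and fork genes. None of Mcm2 to Mcm7 was called, and their estimates ran from -0.38 to 0.07. Ccnd3 was also called lower by scaled counts, at 417 to 464 CPM in precursors against 663 to 868 CPM in marrow. So was Cdkn1b, at 84.6 to 115 CPM against 183 to 281 CPM. On log2(TPM + 1) Ccnd3 turned to 0.12 and Cdkn1b stood at -0.32, neither called.

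**Figure D4:**
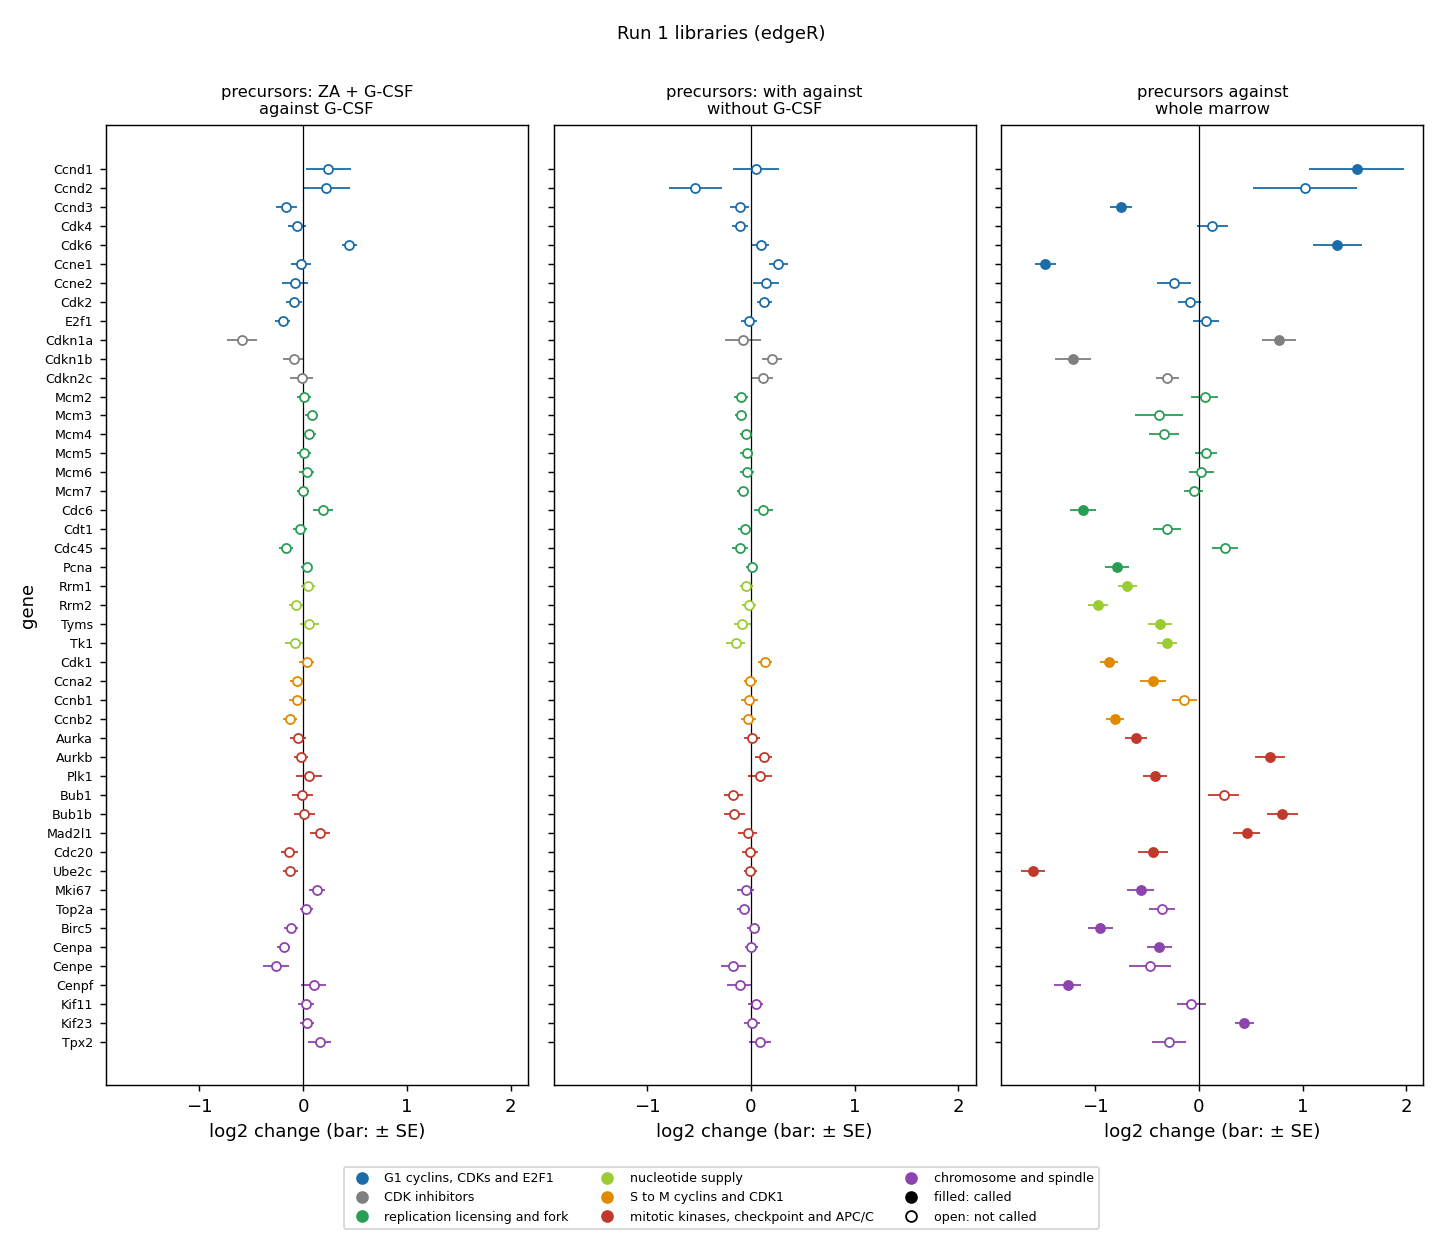
Log2 changes for the 47 genes in run 1, with bars of ± 1 SE from edgeR; filled points passed the adjusted threshold and colours give the role. The 2 treatment panels of precursors hold no filled point, and the panel of precursors against marrow holds 7 to the right of 0 and 20 to the left.

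Of the 27 calls 19 held in every fit that left out 1 library; besides Tk1, Tyms and Ccna2, the call was lost in 7 of 8 fits for Cenpa, 6 for Cdc20, 4 for Ccnd1 and 3 each for Mad2l1 and Plk1. Directions also depended on scale. On log2(TPM + 1) with limma, 27 members were called higher and 2 lower, the median of all genes rose by 0.47, and relative to it the members' median was 0.02. Ccne1 and Ube2c were lower, and Cdk6, Bub1b, Kif23, Aurkb, Cdkn1a, Mad2l1 and Ccnd1 higher, on both scales, while Plk1, Tk1 and Cenpa were called in opposite directions. Cdk1 turned to 0.0019 on the TPM scale. Small RNA took a larger share of TPM in these precursor libraries than in the 3 marrow libraries of run 1, and its part was not tested. The libraries of run 2, taken as labelled, called 0 members. Erythroid markers in run 1 summed to 218 to 4050 CPM in the 8 precursor libraries and 139800 to 255400 CPM in marrow, with all 14 called lower. Mature neutrophil (11 of 11), early B (12 of 12), T and NK (10 of 10) and megakaryocyte markers (8 of 8) were lower too. Of 10 monocyte and macrophage markers 8 were called higher and 1 lower. Primary granule genes were divided, with 3 of 8 called higher and 3 lower, as were stem and progenitor markers, with 2 of 10 each way. None of these markers was at 0 in every precursor library, and their part in the member differences was not tested.

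Other genes of the cycle were also divided, as were all genes of this comparison, with 20.4% called higher and 23.3% lower. Of 50 other replication genes 11 were called higher and 14 lower, with Dna2, a nuclease-helicase, at 1.46 ± 0.11 (SE; edgeR adjusted p = 5.25e-05) and Cdc7, the kinase that fires origins, at 1.29 ± 0.11 (SE; edgeR adjusted p = 0.000115). Of 63 other mitosis genes 6 were higher and 25 lower, with Pttg1, securin, at -2.56 ± 0.17 (SE; edgeR adjusted p = 3.87e-05) and Cdc25b, a phosphatase that activates Cdk1, at -1.97 ± 0.16 (SE; edgeR adjusted p = 0.000105). Of 27 other inhibitors and p53 targets 4 were higher and 15 lower, with Gadd45a at -4.83 ± 0.20 (SE; edgeR adjusted p = 4.62e-06) and Btg2, an antiproliferative gene, at -2.10 ± 0.16 (SE; edgeR adjusted p = 6.99e-05).

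Ratios of related genes within a library do not depend on scaling between libraries; these pairs were chosen after the values were seen and carry no test. The TPM ratio of Ccne1 to Ccne2, the 2 E cyclins, was 0.976 to 2.26 in the 9 marrow libraries and 0.539 to 0.728 in the 8 precursor libraries. Aurkb to Aurka was 1.22 to 2.14 in marrow and 3.35 to 4.59 in precursors. Cdk4 to Cdk6 was 22.6 to 74.7 in marrow and 9.87 to 18.0 in precursors, and Bub1b to Ube2c was 0.0760 to 0.260 against 0.643 to 0.840. In these 4 pairs the marrow and precursor libraries did not overlap, whatever the treatment. Ccnd3 to Ccnd2 overlapped, at 8.60 to 77.7 in marrow and 4.94 to 11.4 in precursors. So did Bub1b to Mcm3, at 0.115 to 1.06 in marrow and 0.647 to 0.913 in precursors.

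**Figure D5:**
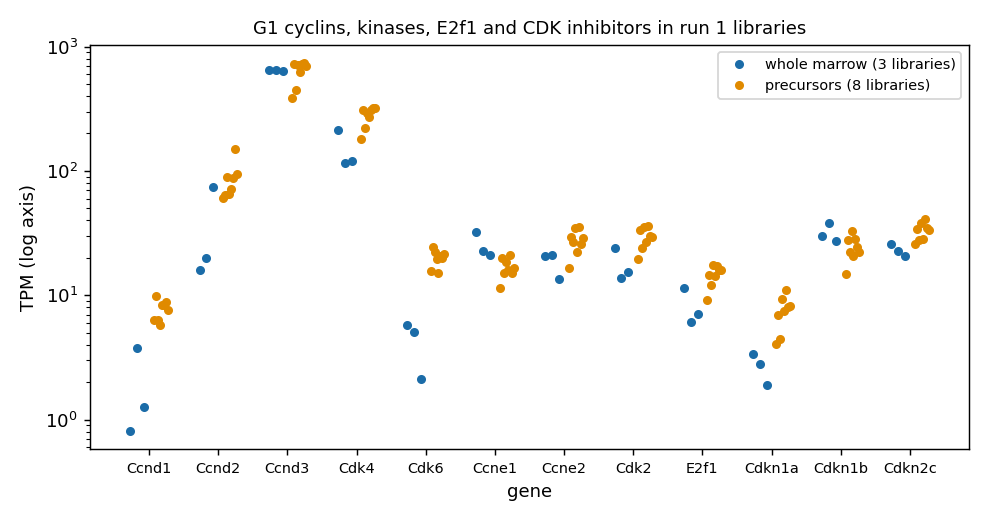
TPM on a log axis for the 12 G1 and inhibitor genes in run 1, with 1 point per library, blue for whole marrow and orange for precursors. Cdk6, Ccnd1 and Cdkn1a are higher in every precursor library than in every marrow library by TPM, and Ccnd3 stands highest in both.

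By TPM the order in precursors began with Ccnd3 (387 to 737 TPM, median 706), Cdk4 (182 to 319 TPM, median 299) and Pcna (154 to 254 TPM, median 239). Ccnd3 and Cdk4 did not overlap over the 8 libraries, while Cdk4 and Pcna did. At the low end stood Ccnd1 (5.72 to 9.95 TPM) and Cdkn1a (4.09 to 11.0 TPM), which overlapped. Cdk6 lay at 15.2 to 24.5 TPM, below Cdk4 in each library.

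Several members share sequence or position with other annotated genes. Ccnd1, Ccnd2, Ccnd3, Cdk4, Cdk6, Ccne2, Cdk2, Ccna2, Ube2c, Cdc20, Tk1, Cdc45 and Mcm7 are among those that overlap a gene on the opposite strand, and annotated pseudogenes carry the names of Ccnd3, Pcna, Tyms, Ccnb1 and Ccnb2. Their levels are uncertain to that extent, since the counting is not stated to use strand and near copies can split reads.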

How the data were processed

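RNA from whole marrow and sorted precursors was sequenced on an Illumina instrument after library preparation with the NEB Ultra RNA kit, per the labels' protocols. Salmon and DESeq2 1.16.1 with mm10 are named per the submitters' processing notes; Salmon's version and settings are not given in the sources used here. The deposited estimated counts and TPM were made by the authors; the estimated counts equalled TPM times gene length times 1 factor per library and were rounded here to whole numbers. Identifiers were matched to GENCODE vM21 (98.9% and 99.0% of rows). edgeR 4.0.16 in R 4.3.3 was used with TMM scaling, a filter (minimum count 10, total 15), robust quasi-likelihood tests and a Benjamini-Hochberg threshold of 0.05; all 9 marrow libraries shared 1 fit. DESeq2 1.42.0, limma 3.58.1 on log2(TPM + 1), no filter, a replicate block, fits of 2 groups and left-out libraries were alternatives. SE is the log2 change over the square root of the test's F. The procedure was tested on simulated data. Members and lists were chosen with earlier results of these data known. Every library value is given for called genes (above 8 calls, the 4 of smallest p per direction) and the highest gene of each role; where none was called, the 2 of smallest p are named, and of other lists the 2 called genes of smallest p. Uncalled members given as examples (such as Mcm2, Mad2l1, Cenpe and Mki67) were chosen after their values were seen.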

Additional observations from a re-analysis of the deposited data

How the results depend on the processing

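Counts of called members moved with the processing, and the cause was not tested except where fewer libraries entered. In G-CSF against untreated marrow, 10 became 16 with DESeq2 and 17 without a count filter, and 4 to 9 when 1 library was left out. ZA against untreated had 0 calls and 1 with DESeq2. Combined against untreated had 5 calls, 8 with DESeq2, 8 without a filter, 28 on log2(TPM + 1), 1 with the 2 groups alone and 0 to 7 with 1 library left out. Combined against G-CSF had 0 calls, 1 with DESeq2 and 2 without a filter; combined against ZA had 0, with 1 by DESeq2, 1 without a filter, 1 with the 2 groups alone and 0 to 1 with 1 library left out; the interaction had 0, with 2 by DESeq2 and 4 without a filter. In precursors, combined against G-CSF had 0 calls and 1 with DESeq2. Precursors against marrow had 27 calls, 21 to 28 with 1 library left out, and 0 in run 2 as labelled.

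On the TPM scale after G-CSF, Cdkn1b reversed to 0.039 and Tpx2 to 0.10, after combined treatment Cdkn1b to 0.48, and between precursors and marrow Cdk1 to 0.0019. In run 2, whose libraries go against their labels, Ube2c reversed to 0.42, Ccne1 to 0.21, Cdk1 to 0.19, Rrm2 to 0.17, Aurkb to -0.24, Kif23 to -0.10, Bub1b to -0.11 and Cdk6 to -0.26.

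Correlations between the deviations of same-numbered libraries ran from -0.049 to 0.126 in marrow, and were -0.030, -0.039 and -0.038 in precursors. In a group of 2 libraries the deviations mirror each other, so few of these values are independent. They cannot settle whether same-numbered libraries are paired, and marrow was not checked against precursors. With the replicate number as a block, G-CSF against untreated had 8 calls, combined against untreated 1 and precursors against marrow 11. The block ended the G-CSF calls of E2f1 (edgeR adjusted p = 0.0520) and Ccnb1 (0.0657), and in precursors against marrow those of Bub1b (0.0678), Aurkb (0.0831) and Kif23 (0.12), among others. With 2 or 3 libraries a group, small changes are beyond what these tests can call.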
